A study of Mus musculus with 36 samples.

Results

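The translation initiation and elongation factors are the proteins that bring ribosomes to mRNA and then drive each step of peptide synthesis. They were taken by name, as every gene whose symbol begins with Eif and a digit or with Eef1 or Eef2. The rule found 65 genes of 21156 in the deposited table, listed as 112 transcript rows whose reads were summed per gene. Some of these genes are not factors themselves but act on them, such as the eIF4E-binding proteins, the eIF2 kinases and the kinase and methyltransferases of the elongation factors. The samples were whole soleus muscles, a postural muscle of the calf rich in slow fibres, each library coming from 1 male C57BL/6J mouse. Age was 6 months in the young groups and 22 to 24 months in the old ones. The young mice formed a control group of 9, a group of 4 whose hind limbs were unloaded for 10 days, and a group of 4 unloaded for 10 days and then reloaded for 3 days. The old mice formed a control group of 9, an unloaded group of 6 and a reloaded group of 4 under the same schedule. In hind limb unloading the hind limbs are kept from bearing weight, and reloading returns them to normal weight bearing. Control mice were kept for 10 days without unloading. All muscles were collected after a fast of a few hours.

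Initiation begins when eIF4E binds the cap of an mRNA and joins the scaffold eIF4G and the helicase eIF4A, which together form eIF4F. The eIF4E-binding proteins compete with eIF4G for eIF4E until the growth-sensing kinase complex mTORC1 phosphorylates them. The small ribosomal subunit carries eIF1, eIF1A, eIF3, eIF5 and the initiator tRNA on eIF2, and it scans to the start codon, where eIF5B joins the large subunit. eIF2 is recharged by the exchange factor eIF2B, a step that the eIF2 kinases block under stress. In elongation, eEF1A delivers aminoacyl-tRNA, the eEF1B subunits recharge it, and eEF2 moves the ribosome along until its kinase Eef2k switches it off. Adult skeletal muscle, heart and neurons differ from most tissues in using eEF1A2 beside or in place of the general form eEF1A1.

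Upstream sequences are shown for 4 factor genes that hold the hexamer described below. They encode the 3 kinds of eIF4F subunit and the most abundant elongation factor, whose levels did not move alike across unloading and reloading. The sequences come from RefSeq on GRCm38.p6, the assembly named mm10 in the submitters' processing notes. Each is the 250 bases before an annotated transcription start, read 5′ to 3′ on the strand of the gene. Capitals mark CACGTG, the E-box hexamer that reads the same on both strands.
Eif4e (chr3:138527018-138527267, plus strand): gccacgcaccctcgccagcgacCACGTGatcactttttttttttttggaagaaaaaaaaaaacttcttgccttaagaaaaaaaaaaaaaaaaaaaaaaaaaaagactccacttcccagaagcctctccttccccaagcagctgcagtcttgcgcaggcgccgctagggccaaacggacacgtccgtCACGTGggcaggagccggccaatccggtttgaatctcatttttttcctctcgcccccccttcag
Eif4a1 (chr11:69672424-69672673, minus strand): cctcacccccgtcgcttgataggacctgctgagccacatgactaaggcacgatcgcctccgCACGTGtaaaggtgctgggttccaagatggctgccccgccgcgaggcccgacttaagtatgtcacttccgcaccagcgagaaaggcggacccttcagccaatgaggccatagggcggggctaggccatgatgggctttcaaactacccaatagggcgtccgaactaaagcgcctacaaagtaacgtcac
Eif4g1 (chr16:20672477-20672726, plus strand): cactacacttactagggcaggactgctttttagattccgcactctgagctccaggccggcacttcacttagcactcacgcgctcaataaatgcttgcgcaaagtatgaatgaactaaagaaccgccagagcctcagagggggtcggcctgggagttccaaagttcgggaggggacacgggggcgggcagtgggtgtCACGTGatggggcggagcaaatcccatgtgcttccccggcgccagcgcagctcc
Eef2 (chr10:81176381-81176630, plus strand): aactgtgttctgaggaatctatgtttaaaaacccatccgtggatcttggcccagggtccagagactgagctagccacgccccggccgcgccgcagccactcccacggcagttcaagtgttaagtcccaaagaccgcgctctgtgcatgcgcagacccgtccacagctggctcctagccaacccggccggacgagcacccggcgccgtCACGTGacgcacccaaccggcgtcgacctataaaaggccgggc
The hexamer began 228 and 64 bases upstream of the start in Eif4e, 189 in Eif4a1, 54 in Eif4g1 and 43 in Eef2. RefSeq windows were matched for 50 of the 65 factor genes, and 11 of these (22.0%) held CACGTG, against 1854 of 27025 symbols (6.86%) over all windows of this length. The other genes with a match were Eef2k, Eif1b, Eif3f, Eif3k, Eif4h, Eif5a and Eif5a2. The 4 genes shown are all among the 11, so they do not stand for the family. Eif4a2, the more abundant helicase gene, was not among the genes with a match. A second motif, TGATGNAA, searched on both strands, was found in 2 of 50 factor genes (4.00%, Eef2k and Eif2s3x) against 3.91% of all symbols. These matches describe letters in a window and do not show that a protein binds there. The 27025 symbols of both comparisons outnumber the 21156 genes of the deposited table, so they include genes not measured here. No share among tested genes was computed. The genes with the hexamer did not share a direction in the expression data: Eif4e was lower in unloaded muscle, Eef2 was higher, Eif4g1 was not called, and the calls of Eif4a1 as lower did not hold under every setting.

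Reads summed over genes came to 32.0 to 37.9 M in a library, and the factor genes took 0.67 to 1.02% of them. Levels are given as CPM, which are reads for each 1 M of the library total, after scaling by trimmed mean of M values. Muscle fibre markers were all present in every group, and their summed level ran from 55764 to 83104 CPM over the 36 libraries. The sum does not show shifts between fibre markers, which are given with the unloading results. Replicate 2 of the young reloaded group stood apart in chi-square comparisons of gene counts, divided by their degrees of freedom. It reached 82.6 to 98.3 against the other 3 libraries of its group, which gave 18.4 to 19.8 among themselves. The old groups also held distant pairs, with values up to 78 in control, 77.6 in unloaded and 71.4 in reloaded muscle. The liver transcript Alb exceeded 20 CPM in 6 libraries, among them replicates 1 and 2 of the young reloaded group and replicates 2 and 4 of the old reloaded group, the highest being 1743 CPM. Values without these libraries are given for some of the results that turn on them, but not for all. A call printed without such a value may still depend on them. After reloading, the summed level of 6 macrophage and leukocyte markers was higher, with a median of 225 CPM (range 111 to 274) in young reloaded muscle against 106 (88.4 to 124) in unloaded muscle. In old muscle the median was 246 CPM (174 to 289) against 131 (109.6 to 162), and all 6 markers were above 0 in every group. The 3 markers of dividing cells summed to a median of 36.2 CPM in young and 20.4 CPM in old reloaded muscle, against 1.06 and 3.14 CPM in unloaded muscle. Their part in the changes of the factor genes between unloaded and reloaded muscle was not tested. In whole muscle, fewer cells of a type and less RNA per cell cannot be told apart.

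By RPKM, reads scaled to both the library total and the length of the transcript, so that genes can be compared, the elongation factors were the most abundant of the family in young control soleus. Eef2 led with a mean of 304 RPKM, followed by Eef1a2 with 272, Eef1a1 with 173 and Eef1g with 150.4. The first initiation factor in this order was Eif4a2 with 69.8 RPKM, close to Eif5a with 63.0, Eif1 with 62.7 and Eif4g1 with 58.7. At the other end, Eif4e1b, a cap-binding protein known from oocytes, did not pass the filter on low counts and reached at most 0.286 CPM in a library. The other 64 genes were tested.

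Unloading raised more factor genes than it lowered, and reloading did the opposite, at both ages. In each comparison edgeR's quasi-likelihood test was used, and a gene was called higher or lower at a Benjamini-Hochberg adjusted p under 0.05 over the 15031 genes tested. In young unloaded against control muscle, 28 of the 64 factor genes were higher and 10 lower, where 40.8% of all genes were called, 19.1% higher and 21.7% lower. In old muscle 27 were higher and 9 lower, against 42.7% of all genes, 19.5% higher and 23.2% lower. In young reloaded against unloaded muscle, 11 were higher and 31 lower, against 47.9% of all genes, 26.4% higher and 21.5% lower. For the old mice 12 were higher and 29 lower, against 51.3% of all genes, 27.8% higher and 23.5% lower. The median log2 fold change of the factor genes was 0.12 on unloading and -0.17 on reloading in young muscle, beside 0.00 and 0.06 over all genes tested. In old muscle it was 0.07 and -0.11, beside -0.00 and 0.03. Of 7 muscle fibre markers 2 were higher, 2 lower and 3 not called on unloading at each age. Myh1 rose by 2.44 at each age, and Ckm by 0.59 in young and 0.53 in old muscle. Myh2 changed by -1.90 and -1.08, and Acta1 by -0.65 and -0.47. On reloading 2 fibre markers were higher and 4 lower in young muscle, and 2 and 3 in old. Markers of other cell types also moved with unloading. The 3 markers of dividing cells fell in young muscle, with log2 fold changes of -2.10 for Mki67, -2.36 for Top2a and -2.69 for Aurkb, and none of the 3 was called in old muscle. Summed endothelial markers ran from 257 to 284 CPM in young unloaded muscle against 299.6 to 339.9 in control, and from 186 to 231 against 224 to 324 in old. Of those 3 markers Kdr was called, at -1.06 in young and -1.45 in old muscle. Of 4 fibroblast markers 2 were lower at each age, with Col1a1 at -2.06 and -1.66, and 1 was higher in old muscle. Of 6 macrophage and leukocyte markers 1 was lower in young and 2 were higher in old unloaded muscle, and all 3 red blood cell markers were lower in old. The part of these fibre and cell type shifts in the changes of the factor genes was not tested. The unloaded mice enter both the unloading and the reloading comparison of their age, so those are not independent of each other.

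The young and old comparisons share no library, and 25 of the factor genes were higher on unloading at both ages while 7 were lower at both. Over all genes the corresponding shares were 13.5% and 16.9%, and 0 of the factor genes were called in opposite directions, as were 0.00665% of all genes. The 7 that were lower at both ages were Eif4e, Eif4e2, Eif4a1, Eif4g2, Eef1g, Eef1akmt1 and Eef2kmt, of which Eif4a1 in old muscle passed narrowly (adjusted p = 0.0487). On reloading, 8 were higher at both ages and 26 lower at both, against 19.0% and 16.5% of all genes. Those higher on reloading at both ages included Eif4e, Eif4a1, Eef1g and Eef1akmt1 of the former group, together with Eef1e1, Eif1a, Eif2ak2 and Eif2s1. Reloaded muscle was not back at control level for every gene. Against control, 12 factor genes were higher and 21 lower in young reloaded muscle, where 49.6% of all genes were called, 26.8% higher and 22.9% lower. In old reloaded muscle 16 were higher and 19 lower, where 42.9% were called, 21.8% higher and 21.1% lower. At both ages 6 were higher (14.9% of all genes) and 12 lower (15.6%), the latter being Eef1a2, Eif2a, Eif2b1, Eif2d, Eif3c, Eif3e, Eif4a2, Eif4b, Eif4e2, Eif4e3, Eif4g1 and Eif5b. Without the young reloaded library that stood apart there were 16, these 12 and also Eif1, Eif4ebp2, Eif4enif1 and Eif4g3. The 6 that were higher became 7, with Eif2s1 and Eif3d gained and Eif4h lost. The heat map gives these fold changes for each gene.

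**Figure D1:**
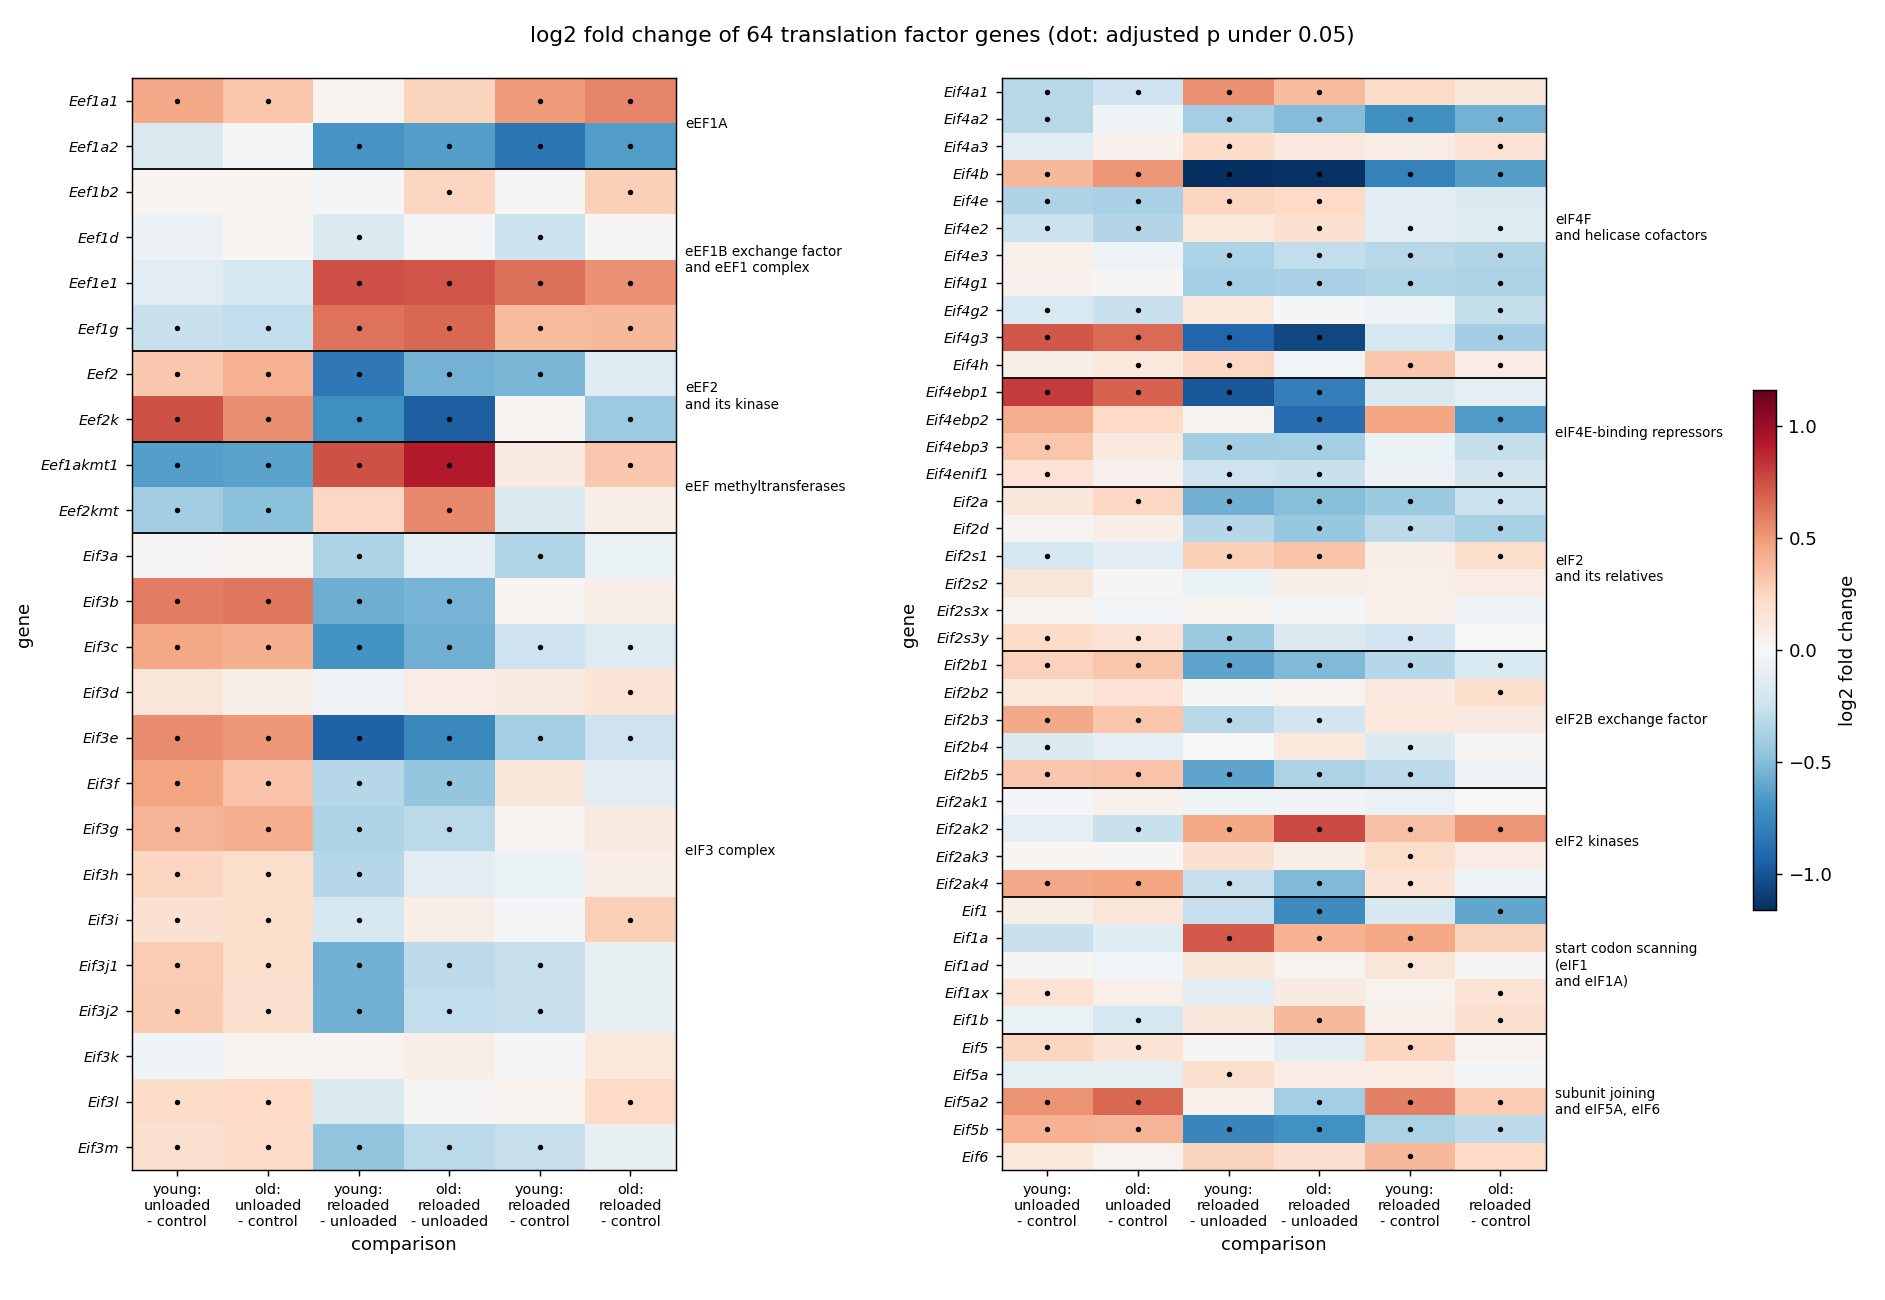
Colour gives the log2 fold change of each of the 64 tested factor genes (rows, grouped by role) in 6 comparisons (columns), and a dot marks an adjusted p under 0.05. The eIF3 rows are mostly red in both unloading columns and mostly blue in both reloading columns, while Eif4e, Eif4a1, Eef1g and Eef1akmt1 show the reverse.

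Reads for the muscle form of eEF1A were fewer relative to the general form in reloaded than in control muscle at both ages. Eef1a1 (chr9:78478453-78481724, minus strand, GRCm38.p6) rose on unloading and Eef1a2 (chr2:181141758-181157015, minus strand) fell on reloading. In young control muscle Eef1a1 ran from 438 to 553 CPM with a median of 452 (n = 9). The young unloaded libraries stood at 679, 569, 651 and 696 CPM. Every unloaded library lay above every control library, and the log2 fold change was 0.44 (SE 0.13, adjusted p = 0.00583). The old control range was 469 to 883 CPM with a median of 627, and the unloaded range was 729 to 929 with a median of 786. These overlapped, and the rise of 0.32 (SE 0.11, adjusted p = 0.0248) was not called without unloaded replicate 4 (0.27, adjusted p = 0.0735), without control replicate 7 (0.28, adjusted p = 0.0510) or without control replicate 8 (0.27, adjusted p = 0.0511). Reloading moved Eef1a1 by 0.04 (SE 0.15) in young and 0.26 (SE 0.14) in old muscle, neither of which passed the test. Reloaded muscle remained above control by 0.49 (SE 0.13, adjusted p = 0.00210) in young and 0.57 (SE 0.13, adjusted p = 0.000482) in old mice. Near-identical processed copies of Eef1a1 exist in the genome, so with reads of 50 bases its values are less certain than those of Eef1a2.

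Eef1a2 did not pass the test on unloading, with a log2 fold change of -0.17 (SE 0.09, adjusted p = 0.121) in young and -0.01 (SE 0.08, adjusted p = 0.931) in old muscle. It stood at 812, 706, 790.3 and 748 CPM in young unloaded and at 422, 615, 403 and 466 CPM in young reloaded muscle. The groups did not overlap, and the fall was -0.68 (SE 0.10, adjusted p = 1.48e-06). The old unloaded libraries ran from 659 to 904 CPM with a median of 728, and the reloaded libraries stood at 499.8, 484, 435 and 555. These groups were again separate, with a log2 fold change of -0.64 (SE 0.09, adjusted p = 1.17e-06).

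The ratio of Eef1a2 reads to Eef1a1 reads within a library does not depend on how libraries are scaled. Its median was 1.91 in young control muscle (range 1.51 to 2.12), 1.20 in unloaded muscle (1.07 to 1.24) and 0.668 in reloaded muscle (0.497 to 1.16). In old muscle it was 1.33 (0.788 to 1.64), 0.955 (0.786 to 1.18) and 0.540 (0.391 to 0.712). Reads for the general form thus outnumbered those for the muscle form in every reloaded library except the young one that stood apart. Exact two-sided permutation tests over libraries were adjusted over 9 comparisons of the log2 ratio. Young unloaded muscle differed from control muscle by -0.62 (adjusted p = 0.00315), where the groups did not overlap and the p is the smallest that these group sizes allow. Reloaded muscle differed from control by -1.34 in young (adjusted p = 0.00315) and by -1.21 in old mice (adjusted p = 0.00315). Reloaded and unloaded old muscle differed by -0.86 (adjusted p = 0.00857). Without the libraries high in Alb that value was -1.23 with an adjusted p of 0.0857, in a repeat of 2 against 5 libraries that did not overlap and whose exact p of 0.0476 is the smallest possible, so it could not pass after adjustment. The young reloaded and unloaded groups differed by -0.73, which did not pass the test (exact p = 0.0571, adjusted p = 0.0690). Without the young reloaded library that stood apart, whose ratio of 1.16 was the highest of its group, the difference was -0.97 (adjusted p = 0.0429). In old muscle unloaded and control groups differed by -0.35, which did not pass the test (adjusted p = 0.0690). Of the repeats with 1 library of these groups left out, only that without control replicate 5 passed (-0.43, adjusted p = 0.0245). The rest had adjusted p from 0.0551 to 0.141. Old control muscle differed from young control muscle by -0.56 (adjusted p = 0.00296).

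**Figure D2:**
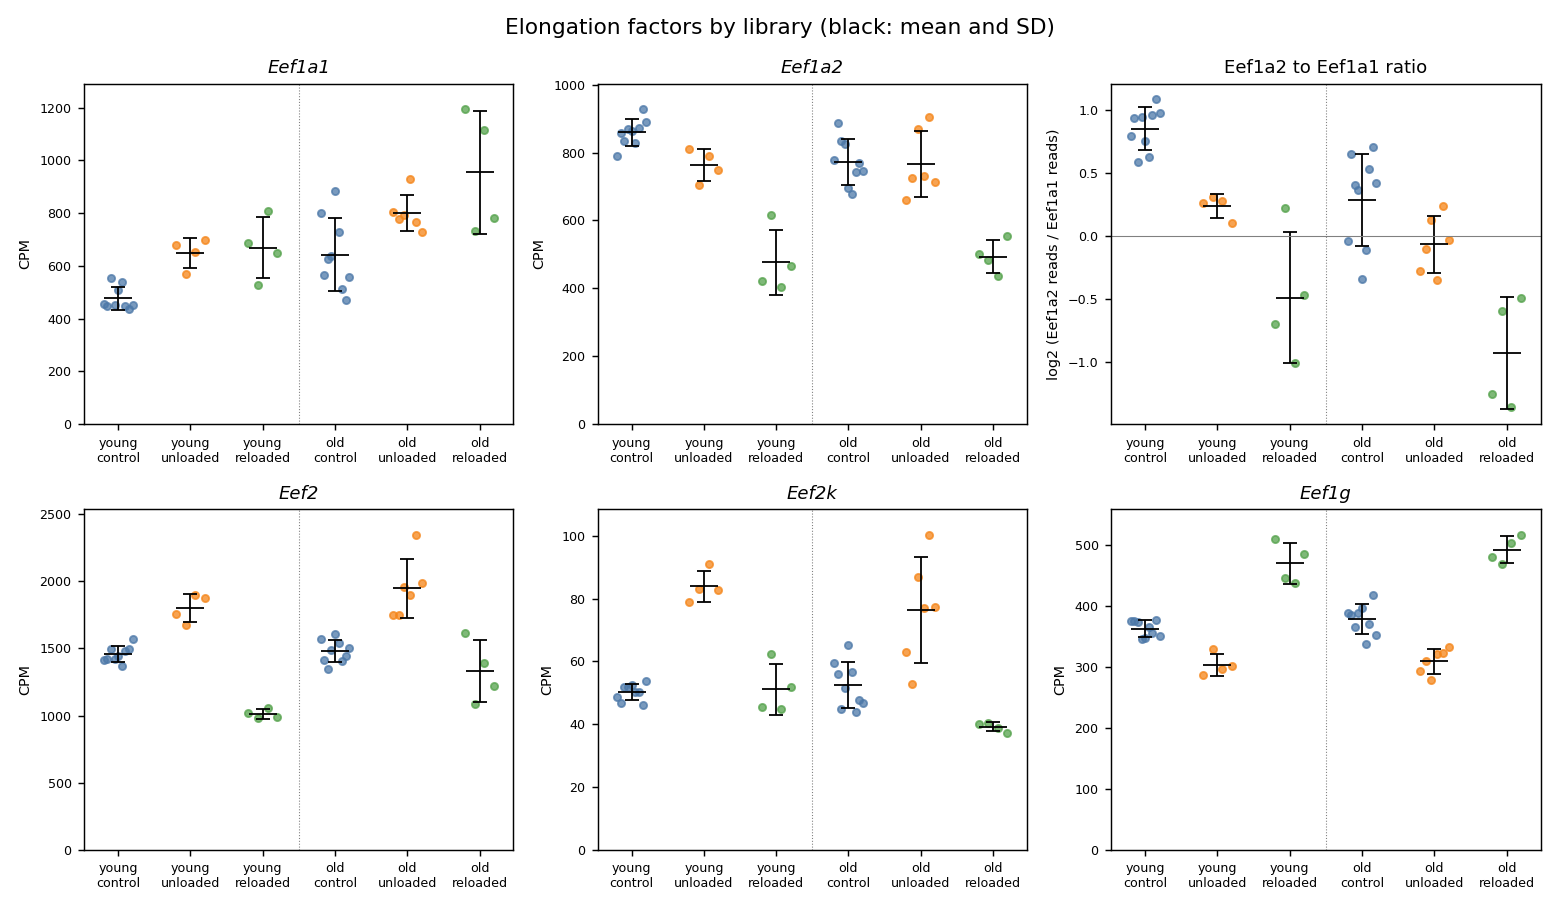
Each point is 1 library, with CPM on the y axis except in the top right panel, which shows the log2 ratio of Eef1a2 reads to Eef1a1 reads; black marks are the mean and SD of a group (n = 9, 4 and 4 young, 9, 6 and 4 old). The ratio panel steps down from control to unloaded to reloaded at both ages, Eef2 and Eef2k are highest in the unloaded groups, and Eef1g is lowest there.

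Eef2, which moves the ribosome by a codon after each bond, was higher in unloaded muscle and then fell below its control level in young reloaded muscle. The young control libraries ran from 1368 to 1568 CPM with a median of 1442. The unloaded libraries stood at 1759, 1677, 1895 and 1877 CPM and the reloaded ones at 1019, 979.5, 1056 and 989.7. The 3 young groups did not overlap. The log2 fold change was 0.31 (SE 0.07, adjusted p = 0.000744) on unloading, -0.83 (SE 0.09, adjusted p = 1.29e-09) on reloading and -0.53 (SE 0.07, adjusted p = 4.58e-07) for reloaded against control. Old control muscle ran from 1350.4 to 1609 CPM with a median of 1489.6, and old unloaded muscle from 1749 to 2348 with a median of 1929. The old reloaded libraries spread more widely, at 1618, 1087, 1395 and 1223 CPM, and they overlapped the controls. Old muscle rose by 0.40 (SE 0.06, adjusted p = 4.76e-06) on unloading and changed by -0.55 (SE 0.08, adjusted p = 6.01e-07) on reloading, which left it -0.15 (SE 0.07, adjusted p = 0.0882) from control.

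Eef2k, the calcium-dependent kinase that inactivates eEF2, moved in the direction of its substrate's transcript. It ran from 46.0 to 53.7 CPM in young control muscle (median 50.4), and stood at 78.9, 83.2, 90.9 and 82.7 CPM in unloaded muscle. In young reloaded muscle it was 45.5, 62.4, 44.8 and 51.8 CPM. The unloaded group lay above both others, with a log2 fold change of 0.74 (SE 0.11, adjusted p = 1.03e-06) on unloading and -0.71 (SE 0.13, adjusted p = 2.68e-05) on reloading. The old values were 0.54 (SE 0.10, adjusted p = 2.16e-05) and -0.96 (SE 0.12, adjusted p = 6.27e-08), although the old unloaded libraries spread from 52.8 to 100.4 CPM. The rise in old muscle was 0.34 (adjusted p = 0.0413) on the most abundant transcript alone. Old reloaded muscle, at 40.2, 40.5, 38.9 and 37.2 CPM, lay below every old control library and differed from control by -0.42 (SE 0.11, adjusted p = 0.00281).

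Of the 4 genes named for the eEF1 complex, Eef1g was lower on unloading, and Eef1g and Eef1e1 were higher on reloading, at both ages. Eef1g, the structural subunit of eEF1B, was at 346 to 377 CPM in young control muscle (median 365) and at 286, 329, 297 and 301 in unloaded muscle. It rose to 509.5, 446, 438 and 485 CPM on reloading, with no overlap between any pair of the 3 groups. The log2 fold change was -0.26 (SE 0.05, adjusted p = 0.000182) on unloading and 0.63 (SE 0.06, adjusted p = 5.69e-10) on reloading. In old muscle it was -0.29 (SE 0.05, adjusted p = 5.74e-06) and 0.67 (SE 0.06, adjusted p = 1.78e-11). Eef1e1, an auxiliary protein of the multi-tRNA synthetase complex despite its name, was scarce at a median of 7.28 CPM in young control muscle. It reached 13.7, 7.69, 11.9 and 10.9 CPM in young and 10.2, 10.2, 10.7 and 9.91 CPM in old reloaded muscle, with rises on reloading of 0.75 (SE 0.14, adjusted p = 2.92e-05) and 0.73 (SE 0.12, adjusted p = 9.37e-06). The catalytic subunits differed from both: Eef1b2 rose on reloading in old muscle (0.25, SE 0.08, adjusted p = 0.00657) and was at -0.02 (SE 0.08) in young. Eef1d fell on reloading in young muscle (-0.17, SE 0.05, adjusted p = 0.00278) and was at -0.02 (SE 0.04) in old.

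Both genes for methyltransferases of elongation factors fell on unloading at both ages. Eef1akmt1, which methylates a lysine of eEF1A, went from a median of 14.1 CPM in young control muscle (12.3 to 17.7) to 9.40, 9.49, 9.03 and 8.79 CPM. Reloading brought it to 16.4, 12.8, 15.4 and 16.9 CPM. The unloaded group was below both others, with log2 fold changes of -0.64 (SE 0.10, adjusted p = 1.89e-06) and 0.74 (SE 0.11, adjusted p = 1.10e-06). The old values were -0.62 (SE 0.08, adjusted p = 2.64e-07) and 0.92 (SE 0.10, adjusted p = 1.68e-09). Eef2kmt, which methylates a lysine of eEF2, changed by -0.40 (SE 0.12, adjusted p = 0.00755) in young and -0.48 (SE 0.10, adjusted p = 0.000294) in old muscle. The young call was lost without unloaded replicate 3 (-0.30, adjusted p = 0.0694). Its rise on reloading passed the test in old muscle (0.56, SE 0.12, adjusted p = 0.000320), and the young value was 0.24 (SE 0.14, adjusted p = 0.165).

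The eIF3 complex, the largest initiation factor and the platform on which the small subunit meets the mRNA, rose on unloading and fell on reloading. Of its 14 genes, 11 were higher and 0 lower on unloading in young muscle, and likewise 11 and 0 in old muscle. On reloading 0 were higher and 11 lower in young muscle, and 0 and 8 in old muscle. Over all genes tested 19.1% and 19.5% were higher on unloading in young and old muscle, and 21.5% and 23.5% lower on reloading. The median log2 fold change of the complex was 0.27 and 0.21 on unloading and -0.36 and -0.29 on reloading in young and old muscle. Eif3a, Eif3d and Eif3k did not pass the test on unloading at either age. They lay between -0.05 and 0.14 in young and between 0.03 and 0.07 in old muscle. Without the young reloaded library that stood apart the young reloading count was 10, and without the libraries high in Alb it was 12, with 12 higher on unloading in young muscle. Eif3j1 and Eif3j2 are listed at nearly the same coordinates of chromosome 2 and moved in step at every point (0.29 and 0.30 on unloading in young muscle), so how reads divide between them is uncertain. RefSeq places Eif3j2 on another chromosome. Both are included in the counts given here. With the pair counted as 1 locus, a choice made after the values were seen, 10 of 13 were higher on unloading at each age, and 10 and 7 were lower on reloading in young and old muscle.

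Eif3e (chr15:43250040-43282736, minus strand), a subunit that contacts eIF4G, showed the largest reloading change in the complex. It ran from 96.5 to 113 CPM in young control muscle (median 101). The unloaded libraries were at 154, 139, 155 and 159 CPM and the reloaded ones at 83.8, 66.6, 79.6 and 86.6. None of the 3 groups overlapped another, and the log2 fold changes were 0.55 (SE 0.06, adjusted p = 5.02e-09) and -0.94 (SE 0.07, adjusted p = 2.36e-12). In old muscle Eif3e ran from 101 to 122 CPM in control and from 145 to 173 in unloaded muscle, and stood at 95.5, 85.2, 100.5 and 100.1 after reloading. The old groups were likewise separate, at 0.50 (SE 0.05, adjusted p = 3.33e-09) and -0.75 (SE 0.07, adjusted p = 5.24e-11). Reloaded muscle ended below control by the same measure, at -0.39 (SE 0.06, adjusted p = 3.46e-06) in young and -0.24 (SE 0.06, adjusted p = 0.00154) in old mice. Eif3b, a core scaffold subunit, rose by 0.59 (SE 0.08, adjusted p = 1.54e-07) in young and 0.61 (SE 0.07, adjusted p = 1.14e-08) in old muscle. Its reloaded values of 73.0, 95.2, 72.6 and 68.2 CPM in young muscle lay within or near the control range of 69.7 to 83.0 except in the library that stood apart. Eif3c, another core subunit, rose by 0.45 (SE 0.05, adjusted p = 7.73e-09) and 0.41 (SE 0.04, adjusted p = 5.81e-09).

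The genes of eIF4F and its cofactors did not share a direction on unloading: the cap-binding proteins Eif4e and Eif4e2 and the scaffold relative Eif4g2 were lower at both ages, and the scaffold Eif4g3 and the helicase cofactor Eif4b were higher. Of the 11 tested genes, 2 were higher and 5 lower on unloading in young muscle, where 19.1% and 21.7% of all genes were called, and 3 and 4 in old, where 19.5% and 23.2% were called. The helicase Eif4a2 was called lower in young muscle, at -0.32 (SE 0.07, adjusted p = 0.000714), and stood at -0.05 (SE 0.06, adjusted p = 0.573) in old. On reloading 4 were higher and 5 lower in young muscle, and 3 and 5 in old. Over all genes tested 26.4% were higher and 21.5% lower in young muscle, and 27.8% and 23.5% in old. Eif4e, which holds the cap, ran from 70.3 to 88.6 CPM in young control muscle with a median of 82.6. It stood at 63.7, 67.6, 59.2 and 62.2 CPM in unloaded muscle, below every control library. After reloading it was at 82.9, 60.7, 75.6 and 80.1 CPM, which overlaps both other groups. The log2 fold change was -0.36 (SE 0.07, adjusted p = 6.54e-05) on unloading and 0.25 (SE 0.08, adjusted p = 0.0113) on reloading. The old values were -0.38 (SE 0.06, adjusted p = 3.87e-06) and 0.23 (SE 0.07, adjusted p = 0.00904). The young reloading call was lost without reloaded replicate 1 (0.18, adjusted p = 0.0869), reloaded replicate 4 (0.20, adjusted p = 0.0630) or unloaded replicate 3 (0.20, adjusted p = 0.0633), and the old call without reloaded replicate 3 (0.18, adjusted p = 0.0658). Eif4e2, a second cap-binding protein linked to repression, also fell on unloading, with log2 fold changes of -0.25 (SE 0.05, adjusted p = 8.31e-05) in young and -0.34 (SE 0.04, adjusted p = 7.83e-08) in old muscle.

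The RNA helicase genes Eif4a1 and Eif4a2 parted on reloading. Eif4a1, the form of proliferating cells, stood at 108, 104, 112 and 109.8 CPM in young unloaded and at 185, 112, 178 and 155 CPM in young reloaded muscle, a log2 fold change of 0.53 (SE 0.13, adjusted p = 0.00137). Eif4a2, the form more abundant in differentiated tissue, went the other way, from 243, 192, 213 and 215 CPM to 176, 133, 173 and 177 CPM, a change of -0.39 (SE 0.09, adjusted p = 0.000283). The lowest Eif4a1 and Eif4a2 value of the reloaded group both belonged to the library that stood apart. In old muscle the reloading changes were 0.37 (SE 0.12, adjusted p = 0.0107) for Eif4a1 and -0.50 (SE 0.08, adjusted p = 2.85e-06) for Eif4a2. The Eif4a1 call in old muscle was lost without reloaded replicate 1 (0.30, adjusted p = 0.0584) or 3 (0.30, adjusted p = 0.0647), and it was 0.56 (adjusted p = 0.000982) without the libraries high in Alb. Against control, Eif4a2 was lower in reloaded muscle, at -0.71 (SE 0.07, adjusted p = 1.62e-09) in young and -0.55 (SE 0.07, adjusted p = 3.66e-07) in old mice, while Eif4a1 was at 0.21 (SE 0.11) and 0.13 (SE 0.11), which did not pass. Without the young library that stood apart, the young Eif4a1 value was 0.33 (adjusted p = 0.0125). Counted on its most abundant transcript alone, Eif4a2 changed by -0.61 on reloading in young muscle (adjusted p = 3.70e-06) and by -0.84 against control in old muscle (adjusted p = 2.51e-09). On unloading Eif4a1 was at -0.32 (SE 0.12, adjusted p = 0.0261) in young and -0.24 (SE 0.10, adjusted p = 0.0487) in old muscle. The young call was lost without unloaded replicate 1, 2 or 4, with adjusted p from 0.0577 to 0.0746. The old call was lost with DESeq2 (adjusted p = 0.0538), with RLE scaling (0.0617), with either other count filter (0.0547 and 0.0718), with only the groups compared (0.0664), with the replicate block (0.0524) and on the most abundant transcript (0.0957). It was also lost without any 1 of old control replicates 1, 4, 5, 8 and 9 or old unloaded replicates 1, 2, 3 and 5, with adjusted p from 0.0632 to 0.117.

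Among the scaffolds, Eif4g3 rose and fell while Eif4g1 changed on reloading. Eif4g3 ran from 76.9 to 99.2 CPM in young control muscle (median 88.8), and stood at 121, 141, 166 and 157 CPM in unloaded and 61.6, 114, 64.5 and 68.2 CPM in reloaded muscle. The log2 fold changes were 0.72 (SE 0.13, adjusted p = 3.05e-05) and -0.92 (SE 0.16, adjusted p = 1.19e-05) in young and 0.66 (SE 0.12, adjusted p = 1.93e-05) and -1.06 (SE 0.15, adjusted p = 3.68e-07) in old muscle. The 114 CPM belonged to the library that stood apart, and without it the young reloaded against control value of -0.20 (adjusted p = 0.220) became -0.47 (adjusted p = 0.00279). Eif4g1, the main scaffold, was at 479 to 512 CPM in young control muscle and 478, 483, 526 and 538 in unloaded muscle, a difference of 0.05 (SE 0.05, adjusted p = 0.484). It then stood at 366, 446, 357 and 372 CPM in young and 401, 392, 381 and 363 CPM in old reloaded muscle, below every library of the other groups of its age. Its reloading changes were -0.39 (SE 0.06, adjusted p = 1.08e-06) and -0.38 (SE 0.05, adjusted p = 4.69e-07). Eif4g2, a relative that lacks the eIF4E-binding site, fell on unloading at both ages (-0.18, adjusted p = 0.00933 and -0.26, adjusted p = 5.52e-05).

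Eif4b (chr15:102073773-102097173, plus strand), which stimulates the helicase and is itself a target of growth signalling, had the lowest reloading fold change of the family at both ages. The young control libraries ran from 283 to 322 CPM with a median of 300.2. The unloaded libraries stood at 439, 323, 399.7 and 404 CPM, and the reloaded ones at 170.2, 172, 177 and 181. These 3 groups did not overlap, and the log2 fold changes were 0.38 (SE 0.06, adjusted p = 5.25e-06) and -1.16 (SE 0.07, adjusted p = 4.64e-14). The old control range was 288 to 337 CPM, the unloaded range 396 to 497, and the reloaded libraries were at 220.0, 192, 205 and 201. The old changes were 0.51 (SE 0.05, adjusted p = 4.00e-09) and -1.15 (SE 0.07, adjusted p = 1.01e-14). Reloaded muscle stood below control at -0.78 (SE 0.06, adjusted p = 8.94e-12) in young and -0.64 (SE 0.06, adjusted p = 1.16e-09) in old mice. The related cofactor Eif4h rose on reloading in young muscle (0.24, SE 0.04, adjusted p = 2.83e-05) and was at -0.03 (SE 0.04) in old. Of the last 2 genes in this group, Eif4e3 fell on reloading at both ages (-0.37, adjusted p = 0.000347 and -0.29, adjusted p = 0.00162). Eif4a3, an exon junction protein, rose on reloading in young muscle (0.21, SE 0.06, adjusted p = 0.00505).

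**Figure D3:**
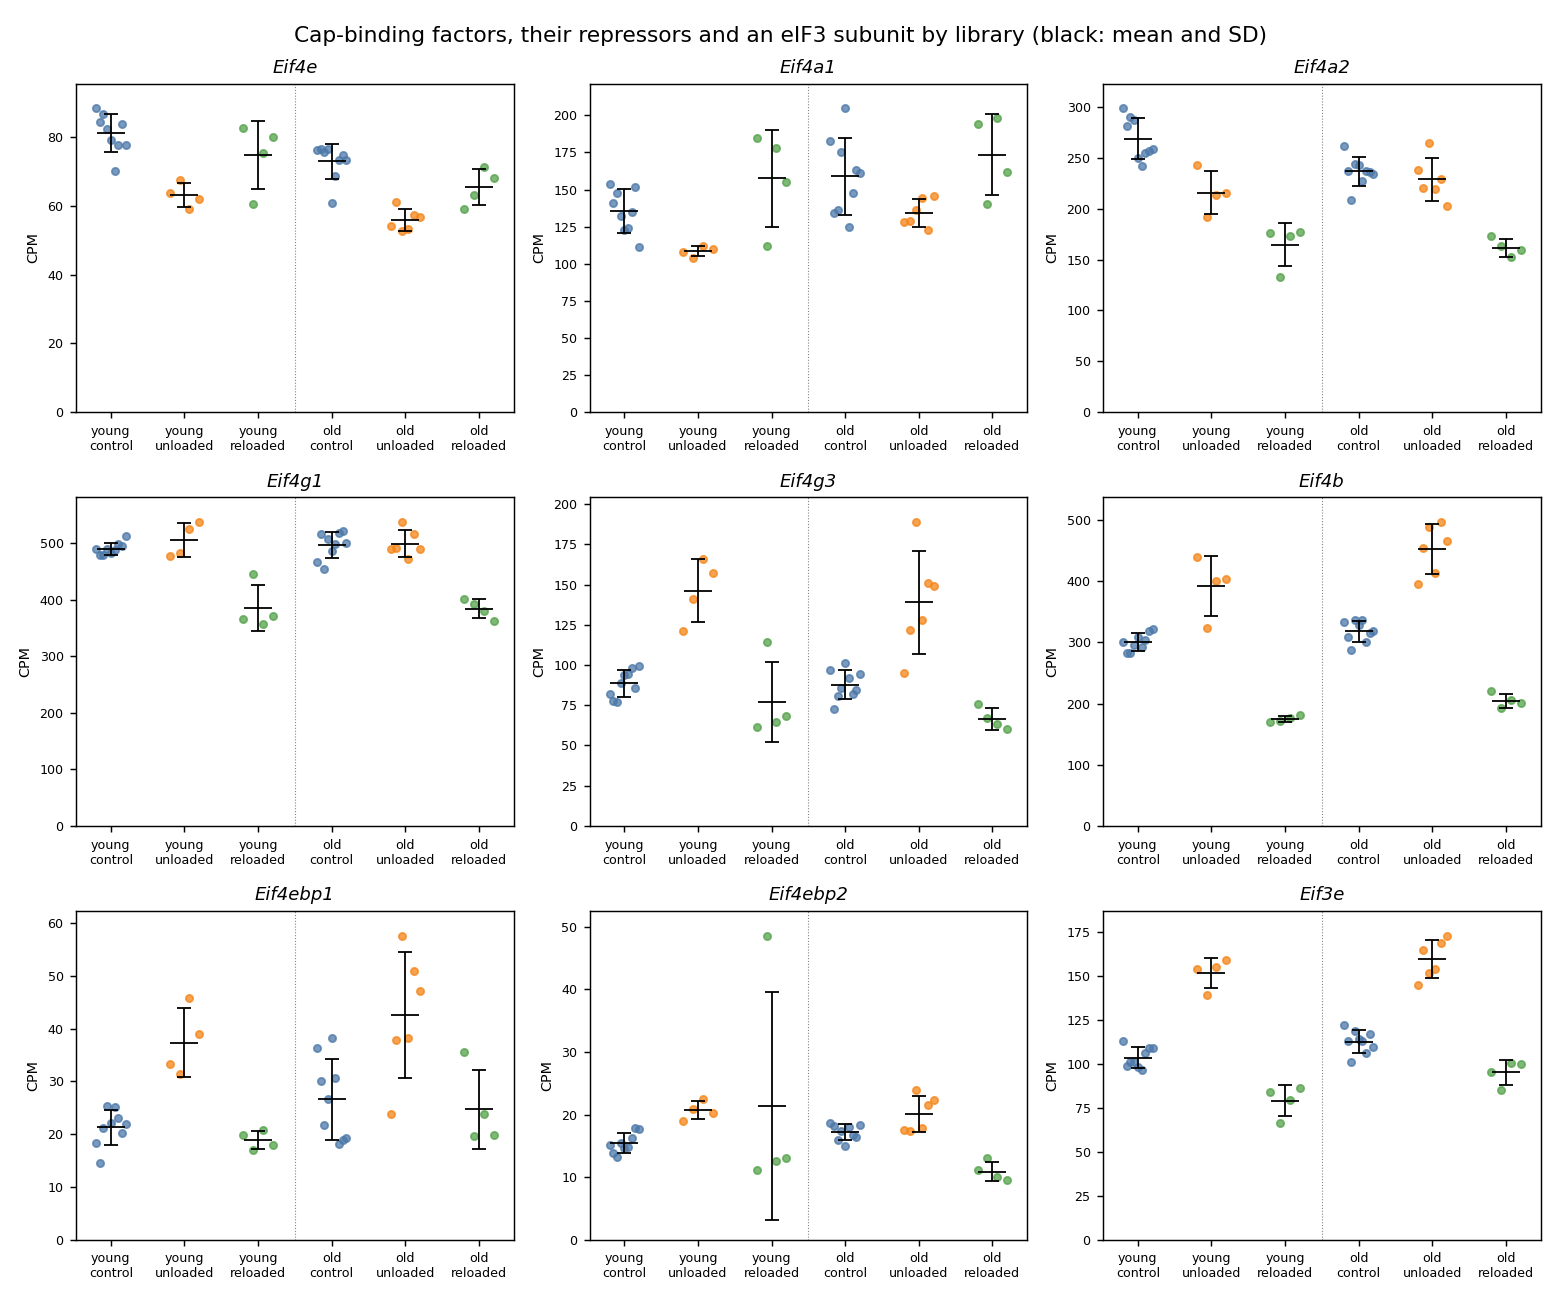
Each point is the CPM of 1 library on a linear axis from 0, and black marks are the mean and SD of a group (n = 9, 4 and 4 young, 9, 6 and 4 old). Eif4e dips and Eif4b, Eif4g3, Eif4ebp1 and Eif3e peak in the unloaded groups; 1 young reloaded library sits far above its group for Eif4ebp2 at 48.6 CPM.

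The eIF4E-binding repressors were higher or not called on unloading and lower or not called on reloading. Of the 4 genes, 3 were higher on unloading in young muscle and 1 in old, where 19.1% and 19.5% of all genes were higher. On reloading 3 were lower in young and 4 in old muscle, where 21.5% and 23.5% of all genes were lower. Eif4ebp1 (chr8:27260327-27275656, plus strand), which sequesters eIF4E when mTORC1 is inactive, had the highest unloading fold change of the family in both ages. It ran from 14.6 to 25.3 CPM in young control muscle with a median of 22.0, and stood at 33.3, 31.4, 45.8 and 38.9 CPM in unloaded muscle. The reloaded libraries were at 19.8, 17.0, 20.7 and 18.0 CPM. The unloaded group was above both others, with log2 fold changes of 0.81 (SE 0.19, adjusted p = 0.000769) and -0.98 (SE 0.23, adjusted p = 0.000686). In old muscle the groups overlapped, from 18.1 to 38.2 CPM in control and from 23.9 to 57.6 in unloaded muscle, with 35.5, 19.7, 23.9 and 19.8 CPM after reloading. The old changes were 0.68 (SE 0.17, adjusted p = 0.00133) and -0.79 (SE 0.21, adjusted p = 0.00242), the latter being -0.50 (adjusted p = 0.150) without the libraries high in Alb. Reloaded muscle differed from control by -0.17 (SE 0.20) in young and -0.11 (SE 0.20) in old mice, neither of which passed.

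For Eif4ebp2, a second member, 1 library decided the young reloading value. Young unloaded muscle was at 19.0, 20.9, 22.5 and 20.3 CPM, and young reloaded muscle at 11.1, 48.6, 12.6 and 13.1. The 48.6 CPM belonged to the library that stood apart. With it the reloading change was 0.04 (SE 0.25, adjusted p = 0.905), and without it -0.77 (adjusted p = 1.52e-06). The unloading change in young muscle was 0.42 (adjusted p = 0.108), and 0.43 (adjusted p = 0.000169) in the fit without that library. In old muscle Eif4ebp2 fell on reloading, from a range of 17.4 to 24.0 CPM to 11.1, 13.0, 9.98 and 9.53 CPM, a log2 fold change of -0.88 (SE 0.24, adjusted p = 0.00223). Eif4ebp3 was scarce, with a median of 3.26 CPM in young control muscle, and fell on reloading at both ages (-0.40, adjusted p = 0.000580 and -0.39, adjusted p = 0.000266). Eif4enif1, which carries eIF4E into the nucleus and to silenced mRNA, also fell on reloading, at -0.24 in young and -0.26 in old muscle (adjusted p = 0.00264 for the latter).

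The exchange factor eIF2B rose on unloading and fell on reloading in 3 of its 5 subunit genes. These were Eif2b1, Eif2b3 and Eif2b5, and the calls held for each of them at both ages. Over all genes tested 13.5% were higher on unloading at both ages and 16.5% lower on reloading at both. Eif2b5, the catalytic subunit, ran from 64.9 to 73.2 CPM in young control muscle (median 70.8) and stood at 85.6, 82.7, 88.5 and 91.6 CPM in unloaded muscle. In reloaded muscle it was at 62.1, 51.8, 55.0 and 58.9 CPM, below every control library. The log2 fold changes were 0.31 (SE 0.04, adjusted p = 4.55e-07) and -0.61 (SE 0.05, adjusted p = 1.43e-11). In old muscle they were 0.33 (SE 0.04, adjusted p = 1.58e-08) and -0.37 (SE 0.05, adjusted p = 6.89e-08). The old reloaded libraries, at 70.2, 70.1, 70.5 and 71.7 CPM, lay within the old control range of 67.9 to 74.7. Eif2b4 was lower on unloading in young muscle (-0.16, SE 0.06, adjusted p = 0.0317), and Eif2b2 did not pass on unloading or reloading at either age.

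Of the eIF2 subunits, Eif2s1, the alpha subunit that the kinases phosphorylate, rose on reloading at both ages, with changes of 0.28 (SE 0.09, adjusted p = 0.0123) in young and 0.33 (SE 0.08, adjusted p = 0.00129) in old muscle. Eif2s2 and the X-linked gamma subunit Eif2s3x did not pass on unloading or reloading at either age, with log2 fold changes between -0.08 and 0.14. The Y-linked gamma copy Eif2s3y rose on unloading at both ages (0.21, adjusted p = 0.0121 and 0.17, adjusted p = 0.0204). Eif2a and Eif2d, which can deliver initiator tRNA without eIF2, fell on reloading at both ages. For Eif2a the changes were -0.56 (SE 0.06, adjusted p = 8.00e-09) and -0.49 (SE 0.06, adjusted p = 2.03e-08). For Eif2d they were -0.33 (SE 0.08, adjusted p = 0.000861) and -0.44 (SE 0.07, adjusted p = 6.03e-06).

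The 4 eIF2 kinases each answer a different stress, and their transcripts moved separately. Eif2ak4 (GCN2), the sensor of uncharged tRNA, ran from 7.71 to 9.68 CPM in young control muscle and stood at 12.3, 11.3, 12.4 and 12.4 CPM in unloaded muscle. After reloading it was at 9.94, 9.57, 10.5 and 10.00 CPM. The unloaded group did not overlap the others, and the log2 fold changes were 0.44 (SE 0.06, adjusted p = 1.71e-07) and -0.27 (SE 0.07, adjusted p = 0.00106). In old muscle they were 0.46 (SE 0.05, adjusted p = 6.15e-09) and -0.51 (SE 0.06, adjusted p = 3.24e-08). Counted on its most abundant transcript alone, all but the old reloading call were lost: unloading in young (0.35, adjusted p = 0.116) and old muscle (0.36, adjusted p = 0.0593) and reloading in young muscle (-0.15, adjusted p = 0.591). Eif2ak2 (PKR), the sensor of double-stranded RNA and an interferon-inducible gene, rose on reloading, where Eif2ak4 fell. On unloading Eif2ak2 was not called in young muscle. It was called lower in old muscle (-0.26, adjusted p = 0.0339), but not in several repeats, such as that with only the groups compared (-0.24, adjusted p = 0.0598). It stood at 12.1, 12.5, 10.5 and 11.9 CPM in young unloaded and 17.6, 13.0, 18.4 and 14.9 CPM in young reloaded muscle (0.45, SE 0.13, adjusted p = 0.00590), and in old muscle it rose by 0.77 (SE 0.12, adjusted p = 2.03e-06). Eif2ak1 and Eif2ak3, the sensors of haem and of unfolded protein in the endoplasmic reticulum, did not pass on unloading or reloading at either age.

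Among the scanning factors, Eif1a rose on reloading at both ages (0.71, SE 0.17, adjusted p = 0.00109 and 0.40, SE 0.16, adjusted p = 0.0330). Eif1, which guards against initiation at the wrong codon, again turned on the library that stood apart. Young reloaded muscle was at 74.4, 199.8, 77.1 and 75.2 CPM, against 128, 117, 133 and 136 CPM in unloaded muscle. The change was -0.27 (SE 0.18, adjusted p = 0.230) with that library and -0.78 (adjusted p = 1.61e-07) without it. Old muscle changed by -0.73 (SE 0.17, adjusted p = 0.000536), with reloaded libraries at 87.1, 76.9, 63.9 and 65.2 CPM and unloaded libraries from 109.8 to 143. Of the others, Eif1ax was higher on unloading in young muscle (0.17, adjusted p = 0.0110), Eif1b fell and rose in old muscle (-0.20, adjusted p = 0.00476 and 0.38, adjusted p = 1.56e-05), and Eif1ad did not pass in these 4 comparisons.

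Of the factors that act at subunit joining, Eif5b rose on unloading and fell on reloading. It ran from 76.3 to 92.1 CPM in young control muscle, stood at 102, 103, 111 and 117 CPM in unloaded muscle and at 59.5, 73.5, 58.8 and 63.4 CPM in reloaded muscle. The 3 groups were separate, with log2 fold changes of 0.40 (SE 0.06, adjusted p = 8.62e-07) and -0.76 (SE 0.07, adjusted p = 7.14e-11). The old values were 0.39 (SE 0.05, adjusted p = 1.19e-07) and -0.70 (SE 0.06, adjusted p = 7.69e-11). Eif5, the activator of the GTPase of eIF2, rose on unloading at both ages (0.25, adjusted p = 0.000744 and 0.16, adjusted p = 0.0116). Eif5a, the hypusine-bearing factor that helps stalled ribosomes, was called on reloading in young muscle (0.19, adjusted p = 0.0332), but at 121, 151, 121 and 122 CPM the call rested on the library that stood apart and the value without it was 0.08 (adjusted p = 0.334). Its scarce paralog Eif5a2 rose on unloading at both ages (0.52, adjusted p = 0.000302 and 0.67, adjusted p = 1.23e-06) from medians of 3.23 and 3.03 CPM. Eif6, which keeps free large subunits apart from small ones, passed only in young reloaded against control muscle (0.38, SE 0.11, adjusted p = 0.00571) among the 9 comparisons of groups.

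Control muscle of old and young mice differed in fewer factor genes. Of 64 genes, 8 were higher and 6 lower in old control muscle, a share near that of all genes, of which 23.7% were called, 12.1% higher and 11.6% lower. Eef1a1 had the largest of these differences at 0.43 (SE 0.10, adjusted p = 0.00268), from a median of 452 CPM to 627 with overlapping ranges. Eef1akmt1 was higher by 0.26 (SE 0.07, adjusted p = 0.00736) and Eif2b3 by 0.21 (SE 0.07, adjusted p = 0.0174). Eif4a2 was lower, at -0.19 (SE 0.06, adjusted p = 0.0157), and so was Eif4e at -0.16 (SE 0.05, adjusted p = 0.0319). The Eif4e call was lost without any of control replicates 5 and 6 of the old or 1, 2 and 3 of the young group, with adjusted p from 0.0534 to 0.0720. In unloaded muscle 5 factor genes differed between the ages, where 9.81% of all genes were called, 4.64% higher and 5.16% lower. Eif4h (0.15, adjusted p = 0.0149), Eif4a3 (0.18, adjusted p = 0.0397) and Eif4b (0.21, adjusted p = 0.0388) were higher in old muscle, while the uncertain pair Eif3j1 (-0.21, adjusted p = 0.0110) and Eif3j2 (-0.22, adjusted p = 0.00810) were lower. With that pair as 1 locus, 4 genes differed. Of these 5, the first 3 were each lost without at least 1 single library, and Eif4b was at 0.12 (adjusted p = 0.284) without young unloaded replicate 2. Without the libraries high in Alb the calls of Eif4h (0.13, adjusted p = 0.0662), Eif4a3 (0.14, adjusted p = 0.154) and Eif4b (0.11, adjusted p = 0.340) were also lost.

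In reloaded muscle 17 factor genes were higher and 6 lower in old than in young mice, where 19.7% of all genes were called, 10.0% higher and 9.67% lower. Of the eIF3 genes 7 were higher and 0 lower, among them Eif3a at 0.40 (SE 0.08, adjusted p = 0.00150), with old libraries at 246, 217, 265 and 251 CPM and young ones at 204, 142, 199 and 199. Eef2 differed by 0.40 (SE 0.09, adjusted p = 0.00187), and its old and young libraries did not overlap. Eif2b5 differed by 0.31 (SE 0.05, adjusted p = 0.000135) and was likewise separate. Eif4ebp2, at -0.97 (SE 0.26, adjusted p = 0.00814), and Eif1, at -0.54 (SE 0.18, adjusted p = 0.0350), were the largest differences in the other direction. Both rested on the young library that stood apart, without which they were -0.17 (adjusted p = 0.373) and -0.04 (adjusted p = 0.838). The whole count depended on that library and on the model: 14 genes were called without the library, 11 without those high in Alb, and 2 when only the 2 reloaded groups were fitted.

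The response to unloading was not shown to differ with age for any factor gene. The test of that difference in edgeR called 0 of 64, as it did 0 of all 15031 genes (0%), and DESeq2 also called 0 of the factor genes. At an unadjusted p under 0.05 there were 2 of 64 factor genes and 1487 of 15031 genes. The same counts were 16 and 2484 for reloading, and 20 and 3297 for reloaded against control muscle. For unloading the smallest adjusted p was 0.360, for Eif4a2, whose young and old changes were -0.32 and -0.05. For the response to reloading, 1 factor gene was called, where 0.778% of all genes were. This was Eif4h, at -0.27 (SE 0.06, adjusted p = 0.0258), whose young and old reloading changes were 0.24 and -0.03. For reloaded against control muscle, 6 were called, 4 positive and 2 negative, against 4.82% of all genes, 2.32% positive and 2.49% negative. Eef2 (0.37, SE 0.10, adjusted p = 0.0311), Eif3i (0.30, SE 0.08, adjusted p = 0.0335), Eif2b5 (0.27, SE 0.06, adjusted p = 0.0130) and Eef1d (0.25, SE 0.06, adjusted p = 0.0123) were positive, meaning less lowered or more raised in old muscle. Eif4h (-0.22, SE 0.05, adjusted p = 0.0171) and Eif4ebp2 (-1.12, SE 0.31, adjusted p = 0.0305) were negative. On the most abundant transcript alone the Eef1d difference was 0.13 (adjusted p = 0.545). Without the library that stood apart, 2 factor genes (Eef1d and Eif2b5) were called for reloaded against control and 0 for reloading, and Eif4ebp2 was at -0.32 (adjusted p = 0.194). Both of those calls were lost without the libraries high in Alb, at 0.29 for Eef1d (adjusted p = 0.0532) and 0.26 for Eif2b5 (adjusted p = 0.0677). So were those of Eif4h, at -0.23 for reloading (adjusted p = 0.181) and -0.20 for reloaded against control (adjusted p = 0.157). The plot of young against old responses shows the reloading point of Eif4ebp2 furthest from the line of equal change.

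**Figure D4:**
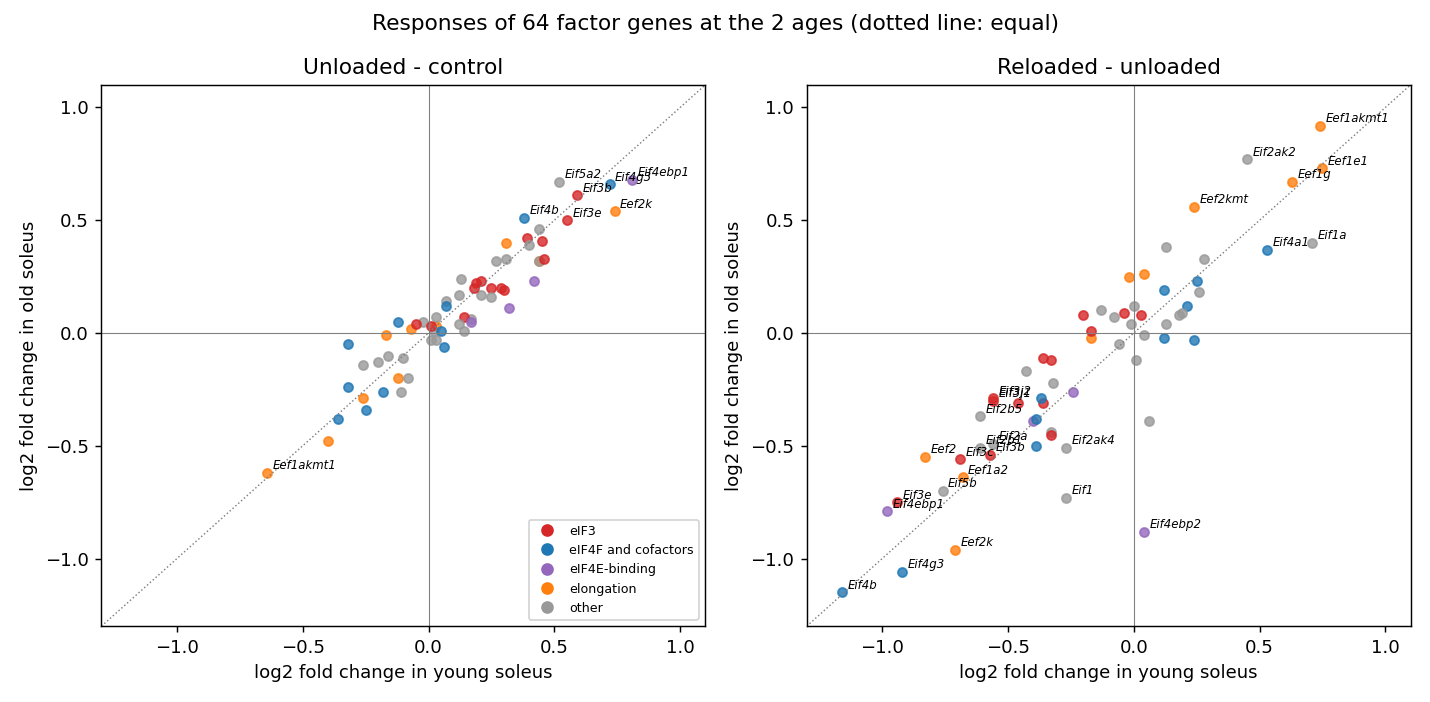
Each point is 1 of the 64 tested factor genes, with its log2 fold change in young muscle on the x axis and in old muscle on the y axis, for unloading (left) and reloading (right); colour gives the role, and genes beyond 0.5 on either axis are named. Most points lie near the dotted line of equal change, from Eef1akmt1 at lower left to Eif4ebp1 at upper right for unloading, and Eif4ebp2 (0.04 in young and -0.88 in old) lies far from it for reloading.

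Genes that act on or beside these factors were followed in 6 lists, read against the shares of all genes given above. Of 26 genes of mTORC1 and its inputs, 10 were higher and 4 lower on unloading in young muscle and 9 and 5 in old, while on reloading 5 were higher and 11 lower in young and 3 and 12 in old. Rps6kb1, the S6 kinase that mTORC1 activates, rose on unloading by 0.32 (adjusted p = 2.49e-06) in young and 0.26 (adjusted p = 8.70e-06) in old muscle. On reloading it changed by -0.45 (adjusted p = 1.41e-07) and -0.30 (adjusted p = 1.89e-05). Ddit4l, an inhibitor of mTORC1 signalling, fell on reloading, with log2 fold changes of -2.72 (adjusted p = 1.30e-09) and -1.74 (adjusted p = 9.22e-07). It had risen on unloading, by 1.01 (adjusted p = 0.000263) and 0.54 (adjusted p = 0.0225). Of 15 partners of eIF4F, 3 were higher and 7 lower on unloading in young muscle and 3 and 6 in old, and 2 and 6, then 1 and 8, on reloading. Dhx29, a helicase of the scanning complex, rose on unloading (0.53, adjusted p = 2.15e-09 and 0.42, adjusted p = 1.80e-08). Paip2b, an inhibitor of poly(A)-binding protein, changed by -0.97 (adjusted p = 1.38e-09) and -1.04 (adjusted p = 6.55e-11) on reloading.

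Of 11 genes around eIF2 phosphorylation, 1 was higher and 4 lower on unloading in young muscle and 1 and 5 in old. Gcn1l1, the partner that GCN2 needs, rose with it (0.76, adjusted p = 1.63e-10 and 0.69, adjusted p = 1.36e-10), while the downstream factor Atf5 fell (-0.91, adjusted p = 1.53e-08 and -1.20, adjusted p = 1.19e-11). On reloading 2 and 2 of that list were called in young and 1 and 1 in old muscle. Of 8 termination and recycling genes, 1 was higher and 1 lower in young and 1 and 2 in old muscle on unloading, and 1 and 3, then 2 and 3, on reloading. Of 9 genes for the modification of eEF2 and eIF5A, 2 were higher and 2 lower on unloading at each age, and 5 and 2, then 3 and 1, on reloading. Dph5, an enzyme of diphthamide synthesis on eEF2, rose on reloading by 1.02 (adjusted p = 1.77e-07) in young and 0.50 (adjusted p = 0.000830) in old muscle. Of 12 mitochondrial translation factors, 0 were higher and 9 lower on unloading at each age, and 5 and 0, then 6 and 1, on reloading. Tufm, the mitochondrial counterpart of eEF1A, changed by -0.91 (adjusted p = 4.72e-14) and -0.58 (adjusted p = 2.08e-11) on unloading and by 0.36 (adjusted p = 9.67e-06) and 0.41 (adjusted p = 1.52e-07) on reloading. Tsfm, which recharges it, changed by -0.69 (adjusted p = 2.43e-08) and -0.63 (adjusted p = 8.84e-09), then by 0.50 (adjusted p = 3.99e-05) and 0.64 (adjusted p = 1.04e-07).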

How the data were processed

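Per the labels' protocols, ribosomal RNA was removed from total RNA of whole soleus, libraries were made with an Illumina TruSeq stranded total RNA kit (a second TruSeq RNA kit is also named), with sequencing of 50-base single reads on 1 flow cell. The sources used here do not give the strand setting of the counting. Partek 6.6, TopHat2 2.0.1, TopHat and DESeq, with the build mm10, appear in the submitters' processing notes. Per the file headers, the authors deposited reads and RPKM for each of 31668 transcripts in 36 libraries. The deposited reads are estimated counts divided among the transcripts of a gene; gene sums were whole to within 0.01 reads for 94.94% of values. The deposited RPKM values were summed per gene and used to order levels and as an alternative for the Eef1a2 to Eef1a1 ratio. A spreadsheet had turned the symbols of 56 transcript rows into dates, and these symbols were restored.

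Reads were summed per symbol and rounded, genes with low counts were removed (filterByExpr), and 15031 genes were scaled (TMM) and fitted in 1 model of 6 groups with edgeR 4.0.16 (glmQLFit and glmQLFTest, 30 residual degrees of freedom, limma 3.58.1, R 4.3.3); p was adjusted by Benjamini-Hochberg over all genes tested within each of 12 comparisons. Libraries held 32.0 to 37.9 M reads, and the common biological coefficient of variation was 0.149. The fit was checked on simulated counts. Each library is 1 mouse, and the mouse numbers in the labels were not used to pair libraries. Of 105 pairs of libraries within groups, none agreed within sampling noise (lowest chi-square per degree of freedom 8.76). Alternatives were DESeq2 1.42.0, RLE scaling, other filters (none, or 5 CPM in 4 libraries), only the groups compared, the most abundant transcript of each gene, a replicate block, leaving out each library, and leaving out the 6 libraries with Alb above 20 CPM.

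The factor genes, the lists and the tests were chosen with earlier results of these data known. Named were 16 tracked genes and eIF3, the 5 largest rises and falls per comparison among called factor genes averaging 5 CPM or more, and up to 3 called genes of each list; other factor genes are named to account for every member, and which of these have values given by library was chosen after the values were seen. Promoter windows are from RefSeq, GRCm38.p6.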

Additional observations from a re-analysis of the deposited data

Results flagged for a closer look

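Among 102 sets of values examined, each within a group, a test for a single distant library (Dixon, 95% level) picked out 8. All 8 were of tracked genes, and chance alone picks out about 1 in 20 groups. Replicate 2 of the young reloaded group accounts for 4 of them, with Eif4ebp2 at 48.6 CPM (the others 11.1 to 13.1), Eif4g1 at 446 CPM (357 to 372), Eif5a at 151 CPM (121 to 122) and Eif4a2 at 133 CPM (173 to 177). Eif2ak4 was low in replicate 2 of the young control group at 7.71 CPM (the others 8.69 to 9.68) and in replicate 2 of the young unloaded group at 11.3 CPM (12.3 to 12.4). Eif4e was low in replicate 5 of the old control group at 60.9 CPM (68.8 to 76.7). Eef1a1 was high in replicate 4 of the old unloaded group at 929 CPM (729 to 803).

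The tested difference between old and young mice passed for 7 results, given here on the log2 scale as old minus young. In the response to reloading it was -0.27 for Eif4h. In reloaded against control muscle it was 0.37 for Eef2, 0.30 for Eif3i, 0.27 for Eif2b5, 0.25 for Eef1d, -0.22 for Eif4h and -1.12 for Eif4ebp2.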

How the results depend on the processing

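Every call was repeated under each alternative, and the call held in every one of them for 29 of the 38 genes called on unloading in young and 30 of 36 in old muscle, 33 of 42 and 34 of 41 on reloading, 24 of 33 and 22 of 35 for reloaded against control, 6 of 14 between control groups of the 2 ages, 2 of 5 between unloaded groups and 1 of 23 between reloaded groups. None of the calls of the 7 age differences held in every alternative. A call that did not hold is one that lost significance or changed sign in at least 1 alternative. The number of factor genes called in old against young unloaded muscle (5) was 3 without the count filter, 10 with only the groups compared, 2 on the most abundant transcript, 3 without the libraries high in Alb, and 2 to 5 with 1 library left out. Between reloaded groups (23) it was 2, with only the groups compared, 11 without the Alb libraries, 14 without young reloaded replicate 2, and 14 to 25 with 1 library left out. For the age difference in reloading (1) it was 4 with DESeq2, 0 with only the groups compared, 0 with the replicate block, 0 without young reloaded replicate 2, and 0 to 3 with 1 library left out. For the age difference in reloaded against control (6) it was 2 without the Alb libraries, 2 without young reloaded replicate 2, and 2 to 7 with 1 library left out. The other counts with 1 library left out were 33 to 39 and 33 to 36 on unloading in young and old muscle, 39 to 42 and 38 to 42 on reloading, 29 to 38 and 26 to 36 for reloaded against control, 10 to 17 between control groups, and 0 for the age difference in unloading.

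The Eef1a2 to Eef1a1 difference on reloading in old muscle was -1.23 (adjusted p = 0.0857) without the Alb libraries, where too few libraries were left for it to pass, and in young muscle -0.97 (adjusted p = 0.0429) without replicate 2. With 1 library left out, the log2 differences of that ratio ran from -0.97 to -0.56 on reloading in young, -0.43 to -0.30 on unloading in old, and -0.36 to -0.25 for old against young unloaded muscle. Each of these passed the test in at least 1 repeat but not in most. Eif4ebp2 changed sign in young reloaded muscle: against unloaded muscle it was -0.77 without replicate 2 and -0.70 without the Alb libraries, and against control -0.34 without replicate 2; with 1 library left out these ran from -0.77 to 0.24 and from -0.34 to 0.67. The cause of these changes was not tested. Of the other repeats for named genes, 5676 kept the call or the lack of one, 56 gained and 206 lost the call. A change of direction was not counted as a change where neither fit was called. RLE scaling moved the median of all genes by at most 0.0228 in size. The mouse numbers do not pair the libraries, since mice differ between groups and 43 correlations of same-numbered libraries ran from -0.417 to 0.428; with the replicate block 38, 35, 43, 38, 31 and 28 genes were called on unloading, reloading and reloaded against control (young then old). Depth was similar in all libraries, and groups of 4 limit what can be called.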
